A study of Mus musculus with 4 samples.

Results

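The genes described here encode the MAP kinases, the kinases above them and the dual-specificity phosphatases, as measured in area CA1 of the mouse hippocampus. They are the genes whose single symbol in the array's annotation starts with Mapk, Map2k, Map3k, Map4k or Dusp, with Dusp6 left out. The rule gave 39 genes of 8251 with a single symbol, read by 59 of 12422 probe sets. Each gene is represented by its probe set with the highest mean log2 signal over the 4 arrays. The 4 samples were total RNA from CA1 of young male C57BL/6J mice, 1 array each. All were controls: an experimenter had handled these mice and they had no further treatment. Their hours of 1, 2, 4 and 6 count from the last shock given to the treated animals, whose samples were not analysed here. The number of mice behind each sample is not given. With 1 sample an hour, a difference between hours cannot be checked against replicates, and an SD over the 4 arrays holds both the hour and the array.

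A MAP kinase pathway is a relay of kinases in which a MAP4K or a small GTPase acts on a MAP3K, the MAP3K phosphorylates a MAP2K, and the MAP2K phosphorylates the MAP kinase on a threonine and a tyrosine. The ERK branch answers growth factors and synaptic calcium and is needed for long-term memory in the hippocampus, whereas the JNK and p38 branches are best known for responses to stress and cytokines. Dual-specificity phosphatases that bind MAP kinases, called MAP kinase phosphatases, remove both phosphates, and several of them are immediate early genes of neurons. These pathways are switched mainly by phosphorylation, which an RNA array does not measure.

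A signal is the deposited intensity of a probe set, scaled by the authors. It can be compared between arrays for 1 probe set but does not rank different genes by RNA amount. Values under 36.8 were set to that floor before log2 was taken, and a gene was tested if its mean log2 reached that of a signal of 116.4. All 4 neuronal markers measured passed the filter. Snap25 had signals of 18421, 17938, 19821 and 19356 at 1, 2, 4 and 6 h, whereas Syt1 had 722, 3671, 1024 and 1016, and Stmn2 and Nefl were also highest at 2 h. The CA1 pyramidal marker Wfs1 had 2293, 1877, 2484 and 2508. Of the 3 CA1 markers measured 2 passed the filter, and Camk2a did not (41.0, 351, 195 and 43.3). Of the 4 markers of the neighbouring dentate gyrus 2 passed, Calb1 (1714, 1532, 1607.5 and 1700) and Dsp (133, 90.5, 168 and 196), Tdo2 was above the floor on every array, and Prox1 was under it on 3. The 2 h array stood apart. Its 3' over 5' signal ratio for Gapdh was 1.08 against 4.10, 3.62 and 3.95 at 1, 4 and 6 h, and among the 5546 genes tested the SD of log2 differences was 0.62 for 2 h against 1 h but 0.51 and 0.52 for 4 and 6 h against 1 h. Summed marker signals also differed at 2 h: that of the 4 neuronal markers was 28823 at 2 h and between 23610 and 25439 on the other arrays, and that of 3 CA3 markers was 2219 against 1470 to 1521. The sum of 4 choroid plexus markers was 1857 against 662 to 1141, led by Ttr and Igfbp2, while Kl was lowest at 2 h and Folr1 highest at 6 h. The sum of 5 astrocyte markers was 16535 against 13132 to 14303, a difference carried mostly by Aldoc, with Gfap lowest at 2 h. The microglia sum was also highest at 2 h, 5124.5 against 3912 to 4662. C1qa, C1qb and Cx3cr1 were highest at 2 h, Csf1r was lowest, and Aif1 and Tyrobp were highest at other hours. The interneuron sum was instead lowest at 2 h, 20940 against 23152 to 23551, as was the dentate sum, 1704 against 1936 to 2028. Among the interneuron markers only Sst was lowest at 2 h. All dentate markers were lowest at 2 h, though most of their sum was Calb1. The oligodendrocyte sum was barely lowest at 2 h, 19890 against 19943 to 25969. That was set by Mobp, which was lowest at 2 h, while Mbp, Mag, Mog and Cnp were all highest at 2 h. Those of the CA1 and of the endothelial and blood markers were neither highest nor lowest at 2 h. The part these values had in the results below was not tested.

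Of the 39 genes, 29 passed the filter: 23 of 31 kinases and scaffold or target genes, and 6 of 8 phosphatases. In the 3-level relay the losses lay mostly at the top, since 4 of 10 MAP3K genes passed, against both genes of the ERK branch, all 7 of the JNK branch and 6 of 7 of the p38 branch. The ERK branch is seen here through its MAP2K genes. The mean signals that passed ran from 456 to 1887 for the ERK branch, 128 to 4755 for the JNK branch, 129 to 988 for the p38 branch and 482 to 1424 for the MAP kinase phosphatases. These ranges overlap, and because probe sets differ in how they bind they set no order between the branches.

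**Figure D1:**
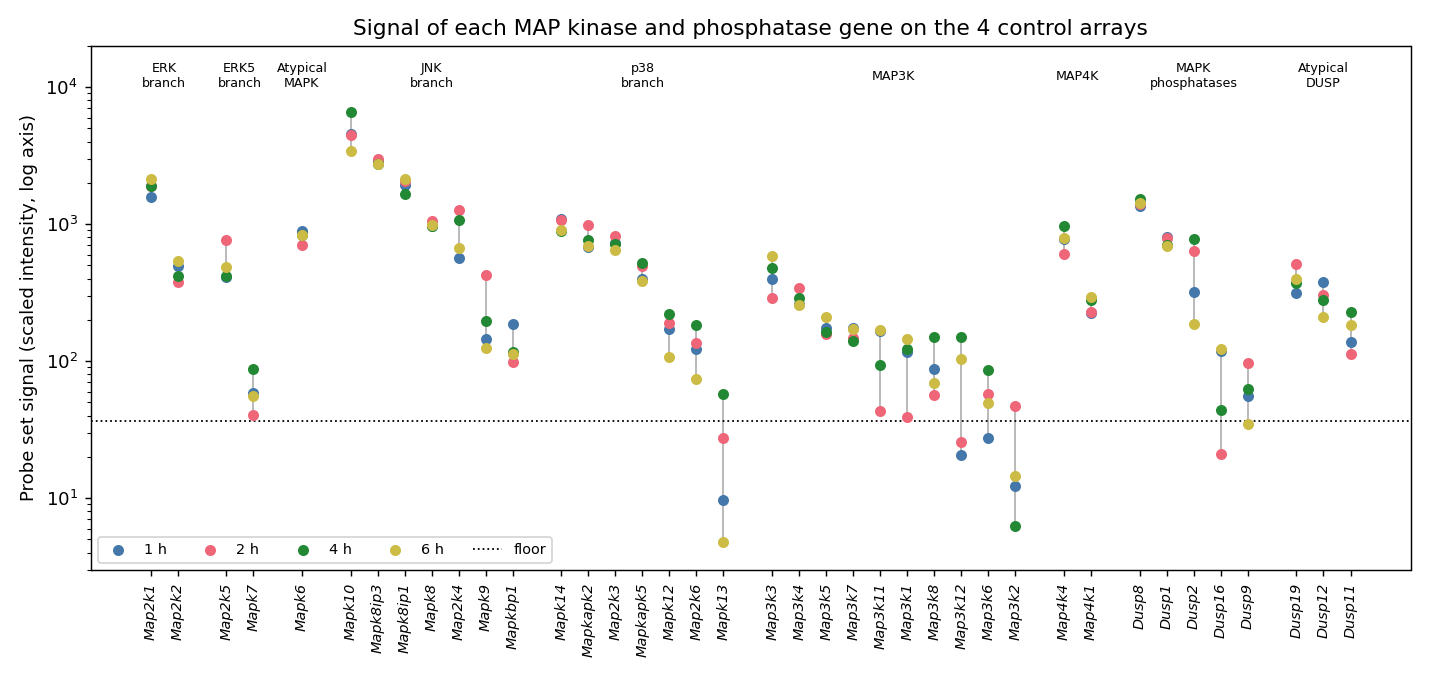
Signal of the brightest probe set of each of the 39 genes (log axis) on the 4 control arrays, 1 point per array coloured by hour, with genes grouped by branch and ordered by mean signal within it. Grey lines join the lowest and highest array and the dotted line is the floor of 36.8; the points of Mapk8, Mapk8ip3 and Dusp8 lie almost on each other, while those of Dusp2 and Mapk9 spread over 4.18-fold and 3.46-fold.

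The MAP2K genes of the ERK branch changed little between arrays. Map2k1, a MAP2K of the ERK branch, had signals of 1590.0, 1895, 1909 and 2152.5 at 1, 2, 4 and 6 h, a mean of 1887 ± 230.4 (SD, n = 4). Its lowest array was 1 h and its highest 6 h, a range of 1.35-fold. Its relative Map2k2 had 494, 375, 418 and 535, a mean of 456 ± 72.1 (SD, n = 4). Here 2 h was lowest and 6 h highest, and the range was 1.43-fold, or 1.28-fold over the 1, 4 and 6 h arrays. A second Map2k1 probe set was too dim to test, with 60.4, 13.5, 19.6 and 107.

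In the ERK5 and atypical branches, Map2k5 stood off at 2 h, whereas Mapk6 varied little. Map2k5, the kinase that activates ERK5, had signals of 411, 761, 419 and 489. The 2 h value stood above the rest, and the range fell from 1.85-fold to 1.19-fold once that array was left out. Its target kinase Mapk7, which is ERK5, was too dim to test, with 58.5, 40.3, 87.4 and 55.8. Mapk6, which encodes the unstable atypical kinase ERK3, had 889, 705, 827 and 832, a mean of 813 ± 77.7 (SD, n = 4). Its 2 h value was lowest, within a range of 1.26-fold, and the other 3 arrays lay within 1.08-fold.

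The JNK branch held both the steadiest and some of the most variable genes. Mapk8 (JNK1), found in most tissues, had signals of 977, 1057, 966 and 984, a mean of 996 ± 41.1 (SD, n = 4) and a range of 1.09-fold. Mapk10 (JNK3), whose expression is largely limited to the nervous system, had 4523, 4506, 6567 and 3422, a mean of 4755 ± 1313 (SD, n = 4). The 1 and 2 h arrays were alike, 4 h was highest and 6 h lowest, 1.92-fold apart. Mapk9 (JNK2) had 146, 429, 196 and 124. Its 2 h value was 2.94 times that at 1 h and the other arrays lay within 1.58-fold.

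Map2k4, a MAP2K that phosphorylates JNK and can phosphorylate p38, had signals of 567, 1277, 1067 and 674.5. The 2 and 4 h arrays were high and the 1 and 6 h arrays low, and 2 h was 2.25 times 1 h. Without the 2 h array the range was 1.88-fold. Mapk8ip3 and Mapk8ip1, scaffolds that tether JNK to its kinases and to the kinesin motor, varied much less on their brightest probe sets. Mapk8ip3 had 2876, 2995.5, 2768 and 2749, a mean of 2847 ± 114 (SD, n = 4) and a range of 1.09-fold. Mapk8ip1 had 1935, 2065, 1669 and 2145, a mean of 1953 ± 209 (SD, n = 4), with 4 h lowest and a range of 1.29-fold. Its second tested probe set ranged over 2.27-fold, with 2 h lowest. Mapkbp1, which encodes a JNK-binding protein, had 186, 97.9, 117 and 112. Its 1 h array was high and the other 3 lay close together, with a range of 1.90-fold over all 4.

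In the p38 branch Mapk14 and Map2k3 were steady, and the brightest probe sets of the dim genes were lowest at 6 h. Mapk14 (p38 alpha), the form most studied in stress and inflammation, had signals of 1096, 1065, 889 and 903, a mean of 988 ± 107 (SD, n = 4). The 1 and 2 h arrays were the higher pair, within a range of 1.23-fold. Map2k3, which phosphorylates p38, had 731.5, 819, 717 and 649, a range of 1.26-fold. Its fellow Map2k6 had 122, 136, 183 and 74.2, and Mapk12 (p38 gamma) had 171, 191, 221 and 107. In both 4 h was highest and 6 h lowest, 2.46-fold apart for Map2k6 and 2.06-fold for Mapk12. The other Map2k6 probe set, which did not pass, had 172, 133, 50.5 and 82.5, with 4 h lowest, so the Map2k6 pattern was not repeated. Mapk13 (p38 delta) had 9.70, 27.3, 57.7 and 4.80 and was above the floor on 1 array.

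Both target kinases that passed, counted with the p38 branch in all branch values here, were highest at 2 or 4 h. Mapkapk2, the p38 target that stabilises cytokine mRNAs, had signals of 677, 987, 766.5 and 692, and the 3 arrays other than 2 h lay within 1.13-fold. Mapkapk5, a partner of ERK3, had 395, 495, 521 and 386. Its 2 and 4 h arrays were the higher pair, with a range of 1.35-fold.

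The MAP3K and MAP4K genes that could be measured mostly varied little. Map3k3, which acts on the ERK5 and other branches, had signals of 398, 289.5, 481 and 588, with 2 h lowest and 6 h highest, 2.03-fold apart. Map3k4, upstream of p38 and JNK, had 261.5, 339, 291 and 256.5. Map3k5, the redox-sensitive kinase ASK1, had 176, 157, 162 and 211. Map3k7, the cytokine-activated kinase TAK1, also passed. Each of Map3k4, Map3k5 and Map3k7 stayed within 1.35-fold over the 4 arrays. Map4k4, an upstream kinase of the JNK branch, had 775, 609, 975 and 786, with 2 h lowest and 4 h highest, 1.60-fold apart. Map4k1, best known from blood cells, had 224, 230, 278 and 294, a range of 1.31-fold.

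In all, 3 MAP kinase phosphatase genes passed, and they differed sharply in spread. Dusp1, a nuclear phosphatase and an immediate early gene, had signals of 809, 797, 709 and 692, a mean of 752 ± 59.5 (SD, n = 4) and a range of 1.17-fold. Dusp8, a phosphatase of JNK and p38 that is abundant in brain, had 1356, 1398, 1515 and 1425, a mean of 1423.5 ± 67.2 (SD, n = 4) and a range of 1.12-fold. Dusp2, another nuclear and inducible phosphatase, had 321, 637.5, 783 and 187. The 2 and 4 h arrays were high and the 1 and 6 h arrays low, and the 4 h signal was 2.44 times that at 1 h and 4.18 times that at 6 h. Its range was the same without the 2 h array. Dusp2 had 1 probe set, so no second one could repeat this pattern. Of the remaining 2 MAP kinase phosphatases, Dusp16, which acts on JNK, had 119.5, 21.0, 44.3 and 123, and Dusp9, which acts on ERK, had 55.3, 97.6, 62.9 and 34.8, both too dim to test.

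The promoters of the 3 tested MAP kinase phosphatases are shown because inducible phosphatase genes are controlled there, in Dusp1 through sites that bind the activity-regulated factor CREB. Each runs from 250 bases before to 50 bases after the start site, on the gene's strand, from RefSeq on build GRCm38.p6: Dusp1 at chr17:26508423-26508722 (minus strand), Dusp2 at chr2:127335909-127336208 (plus strand) and Dusp8 at chr7:142095235-142095534 (minus strand). Capitals mark the cAMP response element TGACGTCA and its shorter core TGACG on either strand; every full element holds 2 overlapping cores.
Dusp1: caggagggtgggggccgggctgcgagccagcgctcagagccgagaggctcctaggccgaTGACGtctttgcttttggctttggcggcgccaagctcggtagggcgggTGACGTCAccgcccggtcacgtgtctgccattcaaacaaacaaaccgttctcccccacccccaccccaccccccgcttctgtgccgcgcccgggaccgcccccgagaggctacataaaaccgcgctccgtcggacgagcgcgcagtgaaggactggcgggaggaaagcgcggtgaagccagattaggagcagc
Dusp2: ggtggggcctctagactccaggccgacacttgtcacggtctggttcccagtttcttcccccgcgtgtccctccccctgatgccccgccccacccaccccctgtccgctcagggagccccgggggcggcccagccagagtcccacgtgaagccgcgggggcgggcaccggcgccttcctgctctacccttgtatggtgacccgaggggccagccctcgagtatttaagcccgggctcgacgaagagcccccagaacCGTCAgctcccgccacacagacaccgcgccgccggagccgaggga
Dusp8: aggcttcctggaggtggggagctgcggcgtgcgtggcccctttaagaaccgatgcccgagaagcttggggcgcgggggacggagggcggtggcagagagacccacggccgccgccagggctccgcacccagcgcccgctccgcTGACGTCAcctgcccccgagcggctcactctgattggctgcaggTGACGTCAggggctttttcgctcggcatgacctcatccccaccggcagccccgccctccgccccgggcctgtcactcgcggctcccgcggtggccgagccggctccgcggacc
The full element was present 1 time in Dusp1, starting 143 bases before the start site, and 2 times in Dusp8, starting 107 and 63 bases before it, with none in the Dusp2 window. Among all 32851 promoters of this length in the table, 1.79% held the full element and 20.8% the core. Of the 39 genes, 33 matched the table by symbol, with 43 promoters, of which 3 held the full element (Dusp1, Dusp8 and Mapk10) and 19 the core. Such a match is a description of the letters and shows neither binding nor use of the site.

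The atypical dual-specificity phosphatases lack the domain that docks onto MAP kinases, and the 3 that were measured all passed. Dusp19 had signals of 316, 515, 371.5 and 399, with 2 h highest and the other 3 arrays within 1.26-fold. Dusp12 had 379, 303, 279 and 209, lower at each later hour, 1.81-fold in all. Dusp11, which acts on RNA ends rather than on kinases, had 139, 112, 230 and 183.5, with 4 h highest and 2 h lowest.

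Spread was compared between the branches as the SD of log2 signal over the 4 arrays, without a test since genes are not replicates. The median SD was 0.21 for the 2 ERK branch genes, 0.39 for the 7 JNK branch genes, 0.24 for the 6 p38 branch genes, 0.19 for the 4 MAP3K genes and 0.11 for the 3 MAP kinase phosphatases. It was 0.23 over the 29 genes and 0.27 over all 5546 genes tested. Without the 2 h array these medians were 0.20, 0.33, 0.20, 0.18 and 0.12, with 0.19 over the 29 genes and 0.21 over all. The JNK median depended on which arrays and genes entered: it was 0.20 without the 1 h array, 0.23 without the 4 h array and 0.16 with a filter at the 60th percentile of signal. The ERK median was 0.32 when all probe sets of a gene were averaged, and the phosphatase median was 0.58 when no filter was used. The branches therefore have no order by spread that holds across these settings.

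Within the branches, single genes stood at both ends. Because SD is larger for dim genes, each was set beside the genes tested in its own class of mean signal, where the median SD was 0.20 for the 1849 bright, 0.26 for the 1848 middle and 0.40 for the 1849 dim genes. Dusp2 had an SD of 0.95, larger than that of 99.1% of middle genes, and Map2k4 one of 0.55, larger than 97.6% of bright genes. Mapk10 (SD 0.39) lay above 89.7% of bright genes and Mapk9 (0.79) above 85.9% of dim genes. Among middle genes, Map3k3 (0.43) lay above 86.6% and Map2k5 (0.41) above 84.4%. At the other end, Mapk8ip3 (0.06), Mapk8 (0.06) and Dusp8 (0.07) lay above only 2.60%, 2.97% and 4.43% of bright genes. Map3k7 (0.16) lay above 7.52% of dim genes and Dusp1 (0.11) above 8.50% of middle genes. Both inducible nuclear phosphatases, Dusp1 and Dusp2, thus lay near opposite ends of the same signal class.

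**Figure D2:**
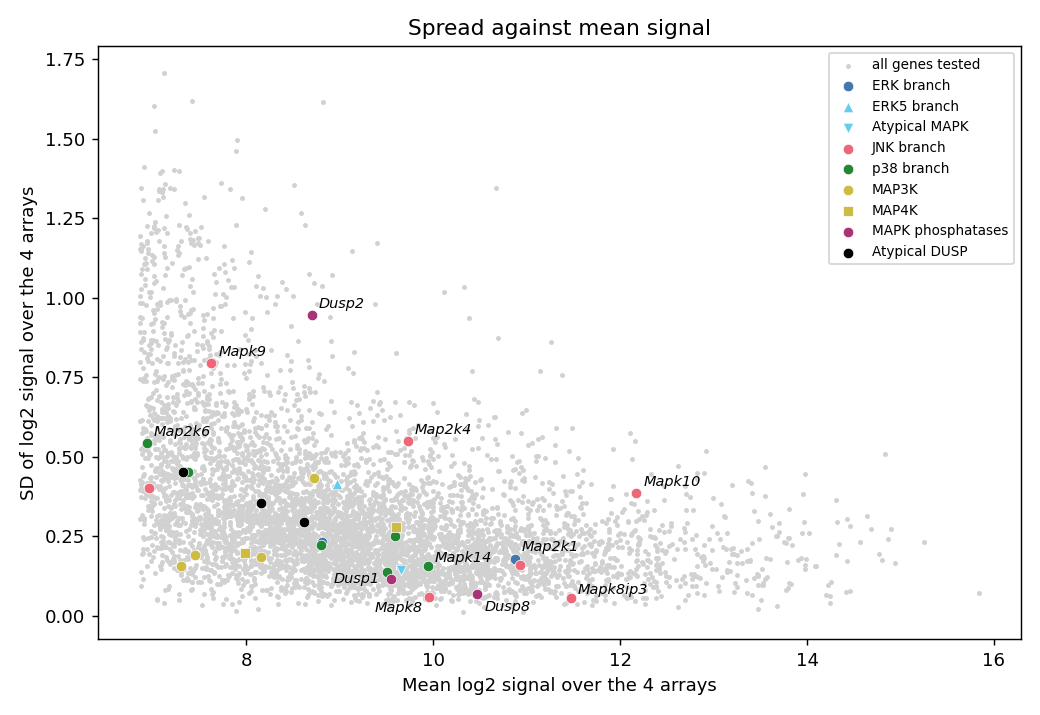
SD of log2 signal over the 4 arrays against mean log2 signal, with 1 grey point for each of 5546 genes tested and coloured points for the 29 genes described. Dusp2 (0.95), Mapk9 (0.79) and Map2k4 (0.55) lie high in the cloud, and Mapk8, Mapk8ip3 and Dusp8 lie along its lower edge.

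Measured against their own 1 h signal, few of the 29 genes had changed 2-fold or more by a later hour. At 2 h, 2 were higher than at 1 h, Map2k4 and Mapk9, and 0 were lower, where 5.7% of all genes tested were higher and 2.98% lower. Mapkbp1, with a log2 difference of -0.93, became a lower call after quantile normalization (-1.03) and after median centring (-1.05). Only Mapk9 lay at least 2-fold above all 3 other arrays at 2 h, as did 1.37% of all genes, and 0 lay so far below, against 0.956%. At 4 h against 1 h, 1 gene was at least 2-fold higher, Dusp2, against 3.05% of all genes, and 0 were lower, against 2.42%. At 6 h against 1 h there were 0 in either direction, against 3.26% and 2.69%. These shares of members are near the background at each hour. Dusp2 at 2 h was 1.99 times its 1 h signal, just under the threshold.

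Over all 4 arrays 16 of the 29 genes stayed within 1.5-fold, against 48.8% of all genes, and 7 ranged over at least 2-fold, against 20.4%. Those 7 were Dusp2, Dusp11, Map2k4, Map2k6, Map3k3, Mapk9 and Mapk12. Without the 2 h array 3 remained, Dusp2, Map2k6 and Mapk12, against 11.6% of all genes. Without the 4 h or the 6 h array the count was 4.

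By branch, 5 of the 6 p38 genes were lower at 6 h than at 1 h, against 48.1% of all genes tested. Their median log2 difference was -0.23 against 0.02 over all. Mapkapk5 counted as lower on a difference of only -0.03, and Map2k3 on -0.17, where its second tested probe set gave 0.28. At 2 h 5 of the 6 p38 genes were higher, against 48.8% of all genes, with medians of 0.16 and -0.01. The JNK genes had medians of 0.09, -0.02 and -0.07 at 2, 4 and 6 h, with 5, 3 and 3 of 7 higher, against 48.8%, 50.7% and 51.9% of all genes. The 3 MAP kinase phosphatases had medians of 0.04, 0.16 and -0.22. The ERK genes had -0.07, 0.01 and 0.28, and both were higher at 6 h. After quantile normalization the p38 counts were 4 of 6 higher at 2 h and 5 of 6 lower at 6 h. After each array was centred on its median, 5 of 6 were higher at 2 h and 6 of 6 lower at 6 h, where 38.9% of all genes were higher and 63.8% lower, with medians over all genes of -0.14 and -0.12. The JNK median at 2 h then turned to -0.03 and the phosphatase median to -0.08, both still above that of all genes, and 1 of the 2 ERK genes was higher at 6 h. No test was made of these branch values.

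No gene had a slope over the hours that passed. The slope of log2 signal per hour was fitted with limma over the 4 arrays, and 0 of 29 genes and 0% of all 7237 probe sets tested had an adjusted p under 0.05. Before adjustment, 0 of the 29 and 2.71% of all probe sets had a p under 0.05. The genes nearest to the threshold were Map3k3, whose log2 signal sloped by 0.16 ± 0.08 per hour (SE over the 4 arrays), and Dusp12, which sloped by -0.16 ± 0.08. Both had an adjusted p of 0.9996 in limma. A straight line cannot judge a gene that was high in the middle hours. Dusp2, for example, had a slope of -0.16 although its 2 and 4 h arrays were its highest.

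**Figure D3:**
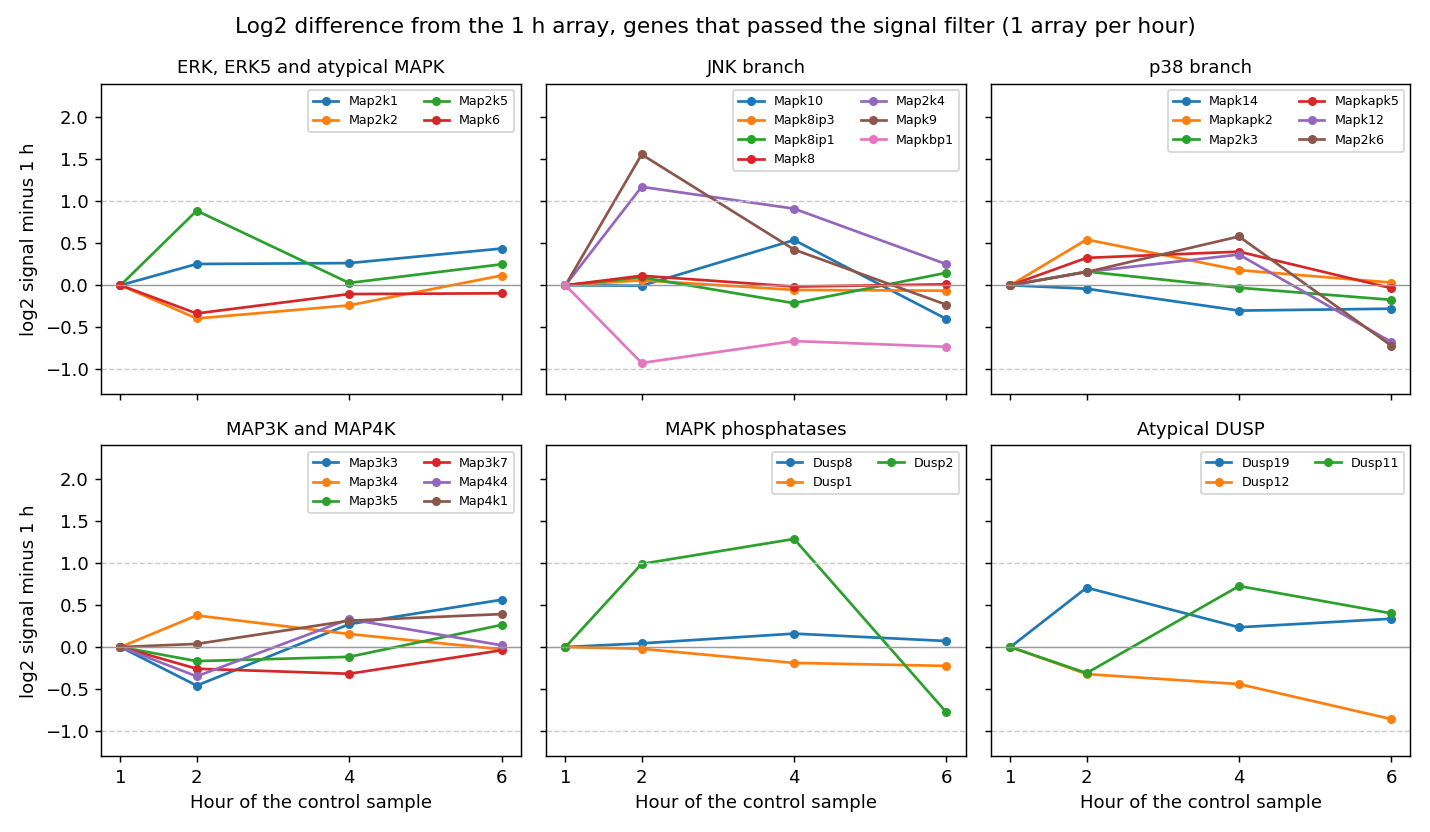
Log2 signal minus that of the 1 h array for the 29 genes that passed the filter, in 6 panels by branch, with 1 array per hour and dashed lines at 2-fold. Mapk9 and Map2k4 cross the upper line at 2 h and Dusp2 at 4 h, and no gene crosses the lower one.

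Where a gene had more than 1 tested probe set, the probe sets mostly did not share a pattern. This was so for 5 genes. For Mapk10, the second probe set had signals of 1524, 897.5, 1058 and 1041, highest at 1 h, whereas the brightest was highest at 4 h. For Mapk8ip1 the second had 585, 258, 449 and 543, a log2 difference of -1.18 at 2 h against 1 h, where the brightest gave 0.09. For Map3k3 the brightest probe set sloped upward by 0.16 log2 per hour, the second sloped by -0.06 and the dimmest by 0.05. The second Dusp8 probe set had 804, 602, 917 and 664, an SD of 0.27 in log2 against 0.07 on the brightest. The steadiness of Dusp8 and Mapk8ip1 therefore rests on their brightest probe sets. For Map2k3 the probe sets had SDs of 0.14 and 0.13, and only the 6 h difference from 1 h changed sign, from -0.17 to 0.28. The probe sets of Mapk9, Map2k4 and Dusp2 were the only ones for these genes.

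**Figure D4:**
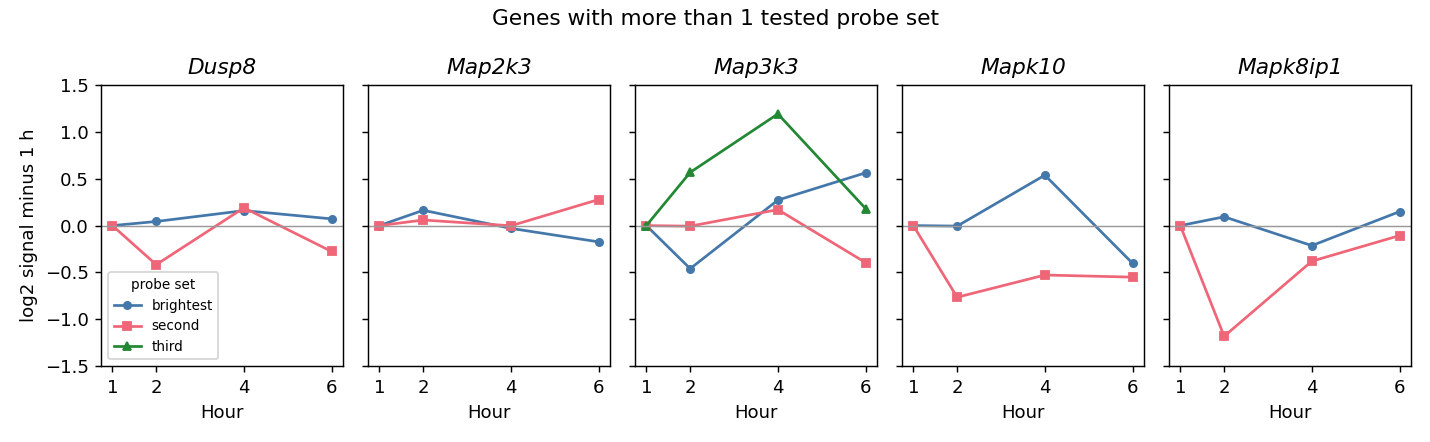
Log2 signal minus that of the 1 h array for each tested probe set of the 5 genes that had more than 1, by hour, with 1 array per hour. The lines of a gene part at 2 h for Mapk8ip1 (0.09 and -1.18) and at 4 h for Mapk10 (0.54 and -0.53).

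The 10 genes that did not pass had mean signals between 20.1 and 118. Beside Mapk7, Mapk13, Dusp9 and Dusp16 these were 6 MAP3K genes. Map3k1 had signals of 117, 39.4, 123 and 144 and Map3k11, which belongs to the mixed-lineage kinases, had 165, 43.0, 93.6 and 169, both lowest at 2 h. Map3k12, the axonal injury kinase DLK, had 20.8, 25.7, 150 and 104, under the floor at 1 and 2 h. The highest signal of Map3k2 on any array was 47.3, that of Map3k6 86.6 and that of Map3k8 151. None of the counts of genes past a fold above includes them.

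Other genes of the pathways were taken from 4 lists of Ras and Raf inputs, restraints, stress inputs and targets. Of 72 listed genes 54 were named on the array and 42 passed. Compared with 1 h, 5 were at least 2-fold higher and 1 lower at 2 h, 1 and 1 at 4 h, and 2 and 1 at 6 h, beside backgrounds of 5.7% and 2.98%, 3.05% and 2.42%, and 3.26% and 2.69%. The median log2 difference at 2 h was -0.12 over these 42 genes, 0.06 over the 29 MAP kinase and phosphatase genes and -0.01 over all genes tested. Limma called 0 of the 42 slopes. Before adjustment 1 of them had a p under 0.05, Gadd45g, a stress-induced activator of a MAP3K, with signals of 185, 344, 345.5 and 487. Its log2 signal sloped by 0.23 ± 0.09 per hour (SE over the 4 arrays), with an adjusted p of 0.9996 in limma.

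Of the 2 genes of widest range in each list, several had their highest or lowest signal at 2 h. How often this was so among all genes tested was not counted. Ksr1, the scaffold that brings Raf and MAP2K together, had signals of 155, 795, 254 and 249, highest at 2 h. Braf, a Raf kinase, had 16.3, 151, 87.8 and 21.9 and was too dim to test. Among the restraints, Ppm1b, a phosphatase of stress kinases, had 179, 635, 221 and 230, again highest at 2 h, and Ppp2ca, the catalytic subunit of protein phosphatase 2A, had 407, 250.5, 314 and 472, lowest at 2 h. Among stress inputs Traf2, an adaptor below the TNF receptor, had 382, 393, 535 and 194, with 6 h lowest. Among targets, the dendritic protein gene Map2 had 19.5, 656, 120.5 and 129, its 1 h signal lying under the floor, and the chaperone gene Hspb1 had 51.1, 112, 157 and 23.5 and did not pass.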

How the data were processed

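Total RNA of 4 control CA1 samples was measured on 1 Affymetrix mouse array each. The deposited table holds 1 intensity per probe set on a linear scale. How it was made from the scans is not stated, and the labels name no batch. After removal of 2% of values at each end the array means differed by 0.0062%, so the values were used as deposited. Values were set to at least the pooled 20th percentile (36.8) before taking log2. The 66 manufacturer controls among 12488 probe sets were left out. The 7237 whose mean log2 reached the pooled 40th percentile (116.4) were tested, which left 5546 genes. Symbols came from the platform annotation: 10833 probe sets had 1 symbol, 396 several and 1193 none, and 10817 were updated through gene identifiers.

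Slopes over the hours were tested with limma 3.58.1 in R 4.3.3 (variance trend, 2 residual degrees of freedom, two-sided, Benjamini-Hochberg at 0.05), after a check on simulated data. That check was for bias and false calls and did not require true slopes to be found. A count of 0 calls therefore does not show that slopes were absent. Differences from the 1 h array have no test and were counted at 2-fold. Nothing says that samples came from separate animals, so p-values measure only the spread between these samples. The genes named with values were all MAP kinases, MAP2K genes, scaffolds, target kinases and MAP kinase phosphatases. For MAP3K, MAP4K and atypical phosphatase genes they were the 3 of highest mean signal and any past 2-fold, and for each other list the 2 of widest range. The cell type markers named, Map3k1, Map3k11 and Map3k12 were picked with their values in view. The members and lists were chosen with earlier results of these data known. Alternatives covered normalization, floor, filter, probe sets, time scale, variance prior, fold, reference and leaving out each array. The number of arrays limits the precision.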

Additional observations from a re-analysis of the deposited data

How the results depend on the processing

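With 1 array an hour, every difference between hours rests on single arrays, and dim probe sets limit the MAP3K level most. Of 29 genes, 0 were called for a slope under any alternative run, including leaving out each array. Counts of genes at least 2-fold from 1 h were 2, 1 and 0 at 2, 4 and 6 h. The 2 h count was 3 after quantile normalization and after median centring, with Mapkbp1 added as lower. The counts were 5, 4 and 1 without a filter, over 39 genes, and 6, 4 and 5 at 1.5-fold. With the filter at the 60th percentile, over 19 genes, the 2 h count was 1. Against the mean of the other 3 arrays the 2 h and 6 h counts were 1 each. The count of genes at least 2-fold outside the other arrays at 2 h was 1, but 3 without a filter, 0 with the filter at the 60th percentile and 2 at 1.5-fold. Genes ranging over at least 2-fold numbered 7, and between 3 and 6 when an array was left out, which was chosen after seeing the data. The median SD of the JNK branch was 0.39, between 0.20 and 0.33 with an array left out and 0.16 with the filter at the 60th percentile. That of the ERK branch was 0.32 with all probe sets averaged, and that of the MAP kinase phosphatases 0.58 without a filter. The filter settings changed which genes entered, and the cause of the other differences was not tested. Single-gene differences at 2 h were recomputed in 169 cases, of which 10 moved by more than the gene's own SD and 0 of the called ones reversed. In 14 cases the sign turned, all for differences under 0.46 log2. Median centring moved the median of all genes by 0.09 log2 at 1 h and under that elsewhere. No paired analysis was possible because each hour has 1 array and the ordinal in the titles is the same for all.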
